A study of Mus musculus with 4 samples.

Results

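Type I interferon-stimulated genes were examined in peritoneal macrophages of mice given unmodified bovine serum albumin (BSA) or advanced glycation end-products (AGEs). The set was chosen by name as 37 genes, of which 36 have a row in the deposited table of 15575 genes. Ifi44 has no row and was not analysed here. All 36 passed edgeR's filter on low counts, which kept 14181 genes.

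The animals were male C57BL/6 mice of 8 to 12 weeks. The control group received BSA, and the AGEs group received the same protein after modification with dehydroascorbic acid (DHA). Both were injected intravenously at 10 mg/kg each day, starting 24 h ahead of intraperitoneal thioglycollate (TG), a sterile irritant that draws monocytes into the cavity. All 4 libraries therefore carry TG and a foreign albumin. Cells were washed out 72 h after TG, and those that adhered to plastic were taken as macrophages. Each group had 2 libraries, described as biological duplicates, and the methods do not say if each was made from a single animal or several.

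Type I interferons signal through the receptor of Ifnar1 and Ifnar2 and the kinases Jak1 and Tyk2, which activate the factor ISGF3. Stat2 and Irf9 are subunits of ISGF3, which binds the interferon-stimulated response element (ISRE) in promoters and turns on antiviral genes. Macrophages keep some of this programme on at rest through low constitutive interferon signalling, and raise it when they sense viral nucleic acid or bacterial products. Several of the induced genes, Irf7, Stat2 and Irf9 among them, act back on the pathway.

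The ISRE core was searched on both strands of RefSeq promoters (GRCm38.p6, 250 bases before to 50 bases after each start) as GAAANNGAAA, where N is any base and matches may overlap. Of the 36 members, 26 have a promoter in that table, and 13 of these (50%) hold a match, against 397 of 10245 tested genes with a promoter (3.88%) and 1131 of all 32851 promoters (3.44%). Dhx58, Zbp1, Ifi204, Usp18, Oas2, Mx1, Mx2, Rtp4, Parp9 and Parp14 have no entry. The stretches before the start are shown for members that the values below turn on, 5′ to 3′ along the gene's strand. Capitals mark the matches, which read as GAAA repeats on the gene's own strand and as TTTC repeats where the match lies on the opposite strand.
Isg15, chr4:156200855-156200916, minus strand: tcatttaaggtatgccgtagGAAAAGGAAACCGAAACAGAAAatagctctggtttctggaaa
Oas3, chr5:120777705-120777754, minus strand: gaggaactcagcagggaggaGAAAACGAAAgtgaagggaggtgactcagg
Oas1a, chr5:120907526-120907565, minus strand: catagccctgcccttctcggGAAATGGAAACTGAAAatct
Bst2, chr8:71537567-71537622, minus strand: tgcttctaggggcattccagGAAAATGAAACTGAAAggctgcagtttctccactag
Ifit1, chr19:34640765-34640833, plus strand: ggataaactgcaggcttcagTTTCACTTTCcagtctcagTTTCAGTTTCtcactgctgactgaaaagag
Ifit3, chr19:34583353-34583436, plus strand: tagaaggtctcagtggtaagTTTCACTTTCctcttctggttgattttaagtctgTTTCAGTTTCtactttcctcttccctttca
Isg15 holds 3 overlapping matches, Oas1a and Bst2 hold 2 overlapping matches each, Ifit1 and Ifit3 hold 2 separate matches each, and Oas3 holds 1. These windows follow the transcript start in the promoter table. The stretch of Ifit3, and part of that of Oas1a, lie inside the gene's RefSeq span. No match was found in the windows of Irf7, Irf9, Ifit2, Oasl1 or Oasl2.

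The libraries held 17773088 to 24472926 counts. The 10 macrophage markers summed to 22887 to 27491 CPM (read counts scaled to library size after TMM normalization), and no marker list of another cell type exceeded 237 CPM in any library. The 5 listed erythroid genes (4 haemoglobin genes and Alas2) summed to 221 CPM in AGEs replicate 2, against 2.45 in AGEs replicate 1, 8.79 in BSA replicate 1 and 18.1 in BSA replicate 2. Of the dendritic cell list, 7 of 10 genes are listed, and their sum was 16.6 to 18.6 CPM with BSA and 11.6 to 14.2 CPM with AGEs. Of these listed genes 4 (Flt3, Ccr7, Cd209a and Kmo) fell past the threshold used below, and Fscn1 rose past it. Of all genes tested, 0.945% fell and 0.825% rose past this threshold. Batf3 did not pass it but lay higher in both AGEs libraries, and Zbtb46 overlapped between the groups. For plasmacytoid dendritic cells, known producers of type I interferon, 5 of 8 markers are listed, without Siglech, and their sum was 195 to 237 CPM, most of it from Tcf4. The full sum was 237 and 211 CPM with BSA against 195 and 217 CPM with AGEs. Tcf4, the 1 of the 5 with a negative log2 fold change (-0.20), had 205 and 175 CPM with BSA against 154 and 177 CPM with AGEs. Without Tcf4 the sum was 31.8 and 36.0 CPM with BSA against 40.9 and 40.2 CPM with AGEs. Of these 5 genes 4, Bst2, itself a member, among them, lay higher in both AGEs libraries, where 17.7% of all genes tested did. Ccr9 of that list rose past the threshold, at 0.553 and 0.725 CPM with BSA against 1.14 and 1.81 CPM with AGEs. The part of these cells in the results below was not tested, and in bulk samples fewer cells of a type and less RNA per cell cannot be told apart. Along the first principal component (38.7% of the variance) BSA replicate 1 lay at -34.6 and the remaining libraries at 5.08 to 16.9. Across genes above a log2 CPM of 3, which are not independent replicates, the log2 fold change rose with transcript GC content (Spearman 0.466), and the median GC content was 47.5% for the members and 49.5% for all genes tested.

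No member differed between AGEs and BSA once p was adjusted over all genes tested. Oas3, which makes the oligoadenylates that activate RNase L, was upregulated past the study's threshold, a change above 1.5-fold with p below 0.05 before adjustment. No other member passed it in either direction. This is 1 of 36 members (2.78%), where 1.77% of all genes tested passed, 0.825% upward and 0.945% downward. The median log2 fold change of the 36 members was 0.058, with 21 above and 15 below 0, against -0.0026 over all genes tested. On log2(TPM + 1) values this median was -0.036. In 8 members both AGEs libraries lay above both BSA libraries and in 4 both lay below, together 33.3%, where 35.3% of all genes tested were separated this way (17.7% in each direction). By edgeR's quasi-likelihood test with Benjamini-Hochberg adjustment 0 members had an adjusted p under 0.05, with a minimum of 0.848. Before adjustment, 3 members (Oas1a, Oas3 and Irf7) were below 0.05 by edgeR, or 8.33%, where 5.64% of all genes tested (800 of 14181) were. By DESeq2 this held for 3 members and 503 of all genes tested, and by limma-voom for 2 members and 744 of all genes tested. Neither of the latter gave a member at an adjusted p under 0.05. With 2 libraries against 2, permuting the libraries of a gene exactly (two-sided) cannot give a p below 0.333.

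**Figure D1:**
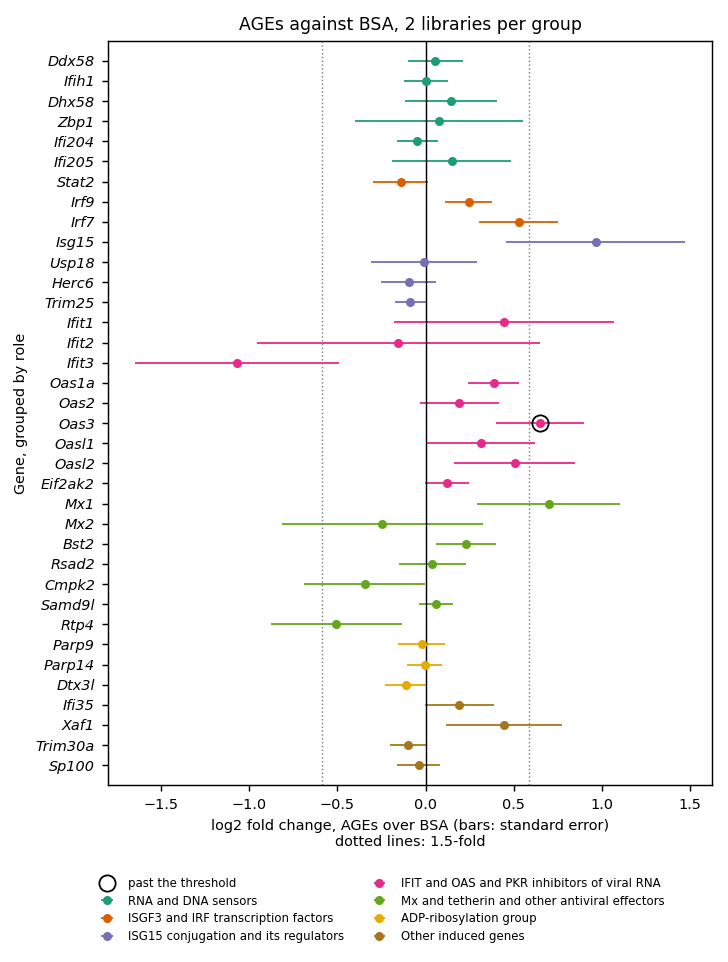
Log2 fold change of AGEs over BSA (x axis; bars are the standard error from edgeR) for the 36 listed interferon-stimulated genes (y axis, grouped and coloured by role). Dotted lines mark a 1.5-fold change and the open circle marks Oas3 (0.65), the gene past the threshold. The estimates lie on both sides of 0, from -1.07 for Ifit3 to 0.96 for Isg15.

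The pattern that most members shared was a gap between the duplicates of the AGEs group. AGEs replicate 1 was the highest of the 4 libraries for 22 of 36 members (61.1%), against 24.2% of all genes tested. AGEs replicate 2 was the highest for 1 member, Parp9 (22.9% of all genes tested), BSA replicate 1 for 9 (29.0%) and BSA replicate 2 for 4 (23.9%). AGEs replicate 1 exceeded AGEs replicate 2 for 31 of 36 members (86.1%), against 51.1% of all genes tested. The median ratio between these duplicates was 1.30 over the members and 1.004 over all genes tested. The ratio was over 1.5-fold in 13 members (36.1%), where 7.11% of all genes tested were, and no member was over 1.5-fold lower in AGEs replicate 1, where 5.71% of all genes tested were.

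In the BSA group the duplicates had no such common direction. BSA replicate 1 was the higher one for 20 of 36 members (49.9% of all genes tested), with a median log2 ratio of 0.018. For 23 members (63.9%) the 95% interval of the AGEs ratio from counting error alone lay above 1, against 19.7% of all genes tested, and for 4 (Stat2, Herc6, Parp9 and Parp14; 11.1%) it lay below 1, against 18.8%. In the BSA group these numbers were 6 members above 1 (20.7% of all genes tested) and 5 below 1 (21.1%). The mean deviation of the members from their own average, on the log2 CPM scale, was 0.27 in AGEs replicate 1, -0.17 in AGEs replicate 2, 0.023 in BSA replicate 1 and -0.12 in BSA replicate 2. The set as a whole was thus highest in AGEs replicate 1. AGEs replicate 2 was lowest but close to BSA replicate 2, against a spread within groups of 0.23 (1 SD). AGEs replicate 2 is also the library with erythroid RNA, and its part in the gap was not tested. The 8 B cell markers, all listed, were also higher in sum in AGEs replicate 2, where 7 of them had their highest level, and they summed to 206 CPM there, 163 CPM in AGEs replicate 1, 144 CPM in BSA replicate 1 and 163 CPM in BSA replicate 2. The 5 listed plasmacytoid dendritic cell markers summed to 195 CPM in AGEs replicate 1 and 217 CPM in AGEs replicate 2. Without Tcf4 these sums were 40.9 and 40.2 CPM. Bst2, itself a member, was higher in AGEs replicate 1, and the other 4 markers were higher in AGEs replicate 2. The part of the B cell and plasmacytoid dendritic cell markers was not tested either.

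**Figure D2:**
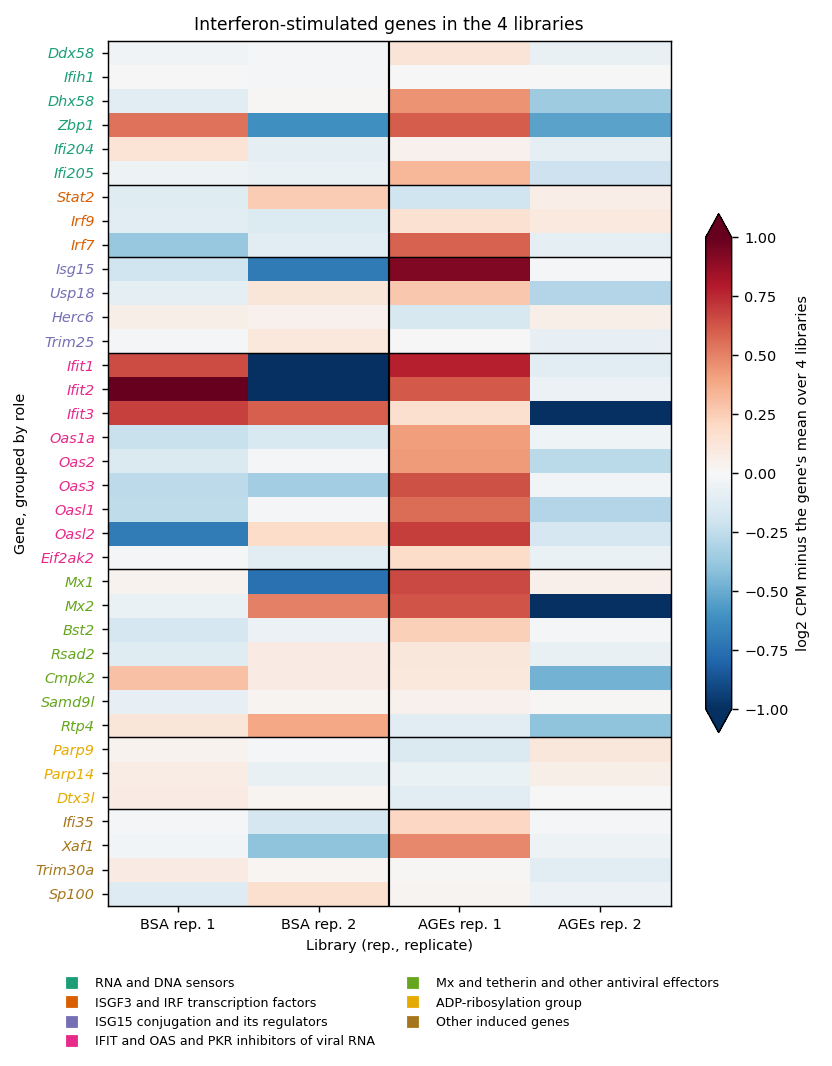
Heat map of the 36 genes (rows, grouped by role, names coloured by role) in the 4 libraries (columns, BSA left of the thick line and AGEs right of it). Colour is log2 CPM minus the gene's mean over the 4 libraries, and values beyond 1 in either direction take the end colours. AGEs replicate 1 is red in most rows, while AGEs replicate 2 is pale or blue in most. The ADP-ribosylation rows are pale in both, at -0.14 to -0.064 in AGEs replicate 1 and -0.0068 to 0.12 in AGEs replicate 2.

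The gap was larger among members with few counts. Divided at a mean of 200 counts, a limit chosen after the values were seen, all 16 members below it had AGEs replicate 1 above AGEs replicate 2, with a median ratio of 1.66. Of the 20 members with more counts 15 did, with a median ratio of 1.07. For all genes tested the medians in these classes were 1.03 and 0.999. With regard to the promoters, 12 of 13 members with an ISRE match were higher in AGEs replicate 1 than in AGEs replicate 2, with a median ratio of 1.19, and 11 of 13 members with a promoter and no match, with a median ratio of 1.17. Over the 397 tested genes with a match this median was 1.01.

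**Figure D3:**
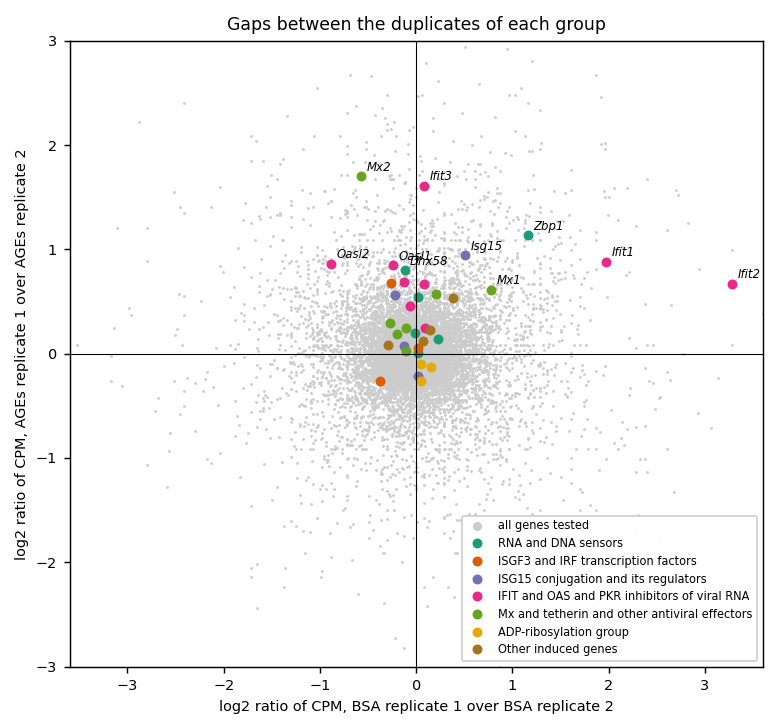
Log2 ratio of CPM between the duplicates of the AGEs group (y axis) against that of the BSA group (x axis). Grey points are all genes tested, 32 of which lie outside the axes, and coloured points are the 36 members by role. Of the members, 31 lie above the horizontal line, and Ifit1 and Ifit2 lie far to the right.

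None of the 6 sensors of foreign nucleic acid passed the threshold, their log2 fold changes lay between -0.046 and 0.15, and all overlapped between the groups. Ddx58, which encodes the RNA sensor RIG-I, had 18.2 and 18.4 CPM with BSA against 20.3 and 17.7 CPM with AGEs. Ifih1, the gene of MDA5, a sensor of long double-stranded RNA, had 27.97 and 27.6 CPM with BSA against 27.9 and 27.8 CPM with AGEs and was even over all libraries. Dhx58, whose product LGP2 modulates both sensors, had 8.01 and 8.70 CPM with BSA against 11.7 and 6.75 CPM with AGEs, so that the AGEs duplicates enclosed the BSA values. Zbp1, a sensor of Z-form nucleic acid that can start necroptosis, had 3.65 and 1.63 CPM with BSA against 3.80 and 1.73 CPM with AGEs. Its duplicates differed about equally in each group, by 2.24-fold with BSA and by 2.20-fold with AGEs.

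Ifi204 and Ifi205 belong to the p200 family, whose members include sensors of DNA. They lie on chromosome 1 among related copies that may share reads, so their levels are uncertain. Ifi204 was among the 4 members with the highest TPM (a level scaled for gene length as well as library size), with means of 29.9 TPM with BSA and 27.0 TPM with AGEs. It had 49.1 and 42.0 CPM with BSA against 46.2 and 42.0 CPM with AGEs, with overlapping groups and a log2 fold change of -0.046 ± 0.12 (SE; adjusted p = 0.977 from edgeR). Ifi205 was lower, and its levels of 3.21 and 3.17 CPM with BSA against 4.19 and 2.88 CPM with AGEs also overlapped.

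Of the transcription factors, Irf7 and Irf9 were at higher levels in both AGEs libraries, while Stat2 overlapped. Irf7, the factor that amplifies interferon production (Entrez gene 54123; chromosome 7, 141263183 to 141266499 of GRCm38), had 189 and 277 counts with BSA against 468 and 311 counts with AGEs. This corresponds to 10.4 and 12.6 CPM with BSA against 20.4 and 12.8 CPM with AGEs. AGEs replicate 1 lay far above the other 3 libraries, and AGEs replicate 2 hardly above BSA replicate 2. The log2 fold change was 0.53 ± 0.22 (SE) with an unadjusted p of 0.0358 and an adjusted p of 0.879 from edgeR, and it stayed under the fold limit.

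Irf9, the DNA-binding subunit of ISGF3 (Entrez gene 16391; chromosome 14, 55603985 to 55610030), had 416 and 499 counts with BSA against 630 and 644 counts with AGEs, or 23.0 and 22.6 CPM with BSA against 27.5 and 26.5 CPM with AGEs. Here the duplicates lay close together in each group and the groups did not overlap. The log2 fold change was 0.24 ± 0.13 (SE; adjusted p = 0.898 from edgeR) and stayed at 0.22 to 0.27 with each library left out in turn. Stat2, the subunit that carries the activation domain of ISGF3, had 24.9 and 32.3 CPM with BSA against 23.6 and 28.4 CPM with AGEs. It was lower in replicate 1 of each group. Its gene overlaps Apof by 753 bases, and it is not stated whether reads were assigned by strand.

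The genes around ISG15, a ubiquitin-like modifier that is attached to other proteins, went different ways. Isg15 itself (Entrez gene 100038882; chromosome 4, 156199424 to 156200818) had only 21 and 18 counts with BSA against 58 and 32 counts with AGEs, or 1.16 and 0.816 CPM with BSA against 2.53 and 1.32 CPM with AGEs. Both AGEs libraries lay above both BSA libraries, although the 95% Poisson interval of AGEs replicate 2 (0.901 to 1.86 CPM) covered BSA replicate 1. Its log2 fold change was the highest of the members, at 0.96 ± 0.51 (SE), and did not pass the threshold (adjusted p = 0.893 from edgeR).

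Usp18, which removes ISG15 and also dampens the receptor, had 4.20 and 4.89 CPM with BSA against 5.41 and 3.66 CPM with AGEs. Herc6, the main ISG15 ligase in mice, had 19.1 and 18.9 CPM with BSA against 16.5 and 19.1 CPM with AGEs. Both overlapped between the groups. Trim25, a ubiquitin ligase that assists RIG-I, had the highest TPM of all members, with means of 53.2 TPM with BSA and 47.0 TPM with AGEs. It had 186 and 202 CPM with BSA against 187 and 178 CPM with AGEs and a log2 fold change of -0.086 ± 0.086 (SE; adjusted p = 0.930 from edgeR).

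The 9 genes that act on viral RNA included the gene past the threshold, and in all 9 AGEs replicate 1 exceeded AGEs replicate 2, with a median ratio of 1.61. Oas3 (Entrez gene 246727; chromosome 5, 120753098 to 120777684) had 126 and 145 counts with BSA against 298 and 199 counts with AGEs, or 6.96 and 6.57 CPM with BSA against 13.0 and 8.19 CPM with AGEs. The BSA duplicates agreed within counting error, and AGEs replicate 2 stood slightly above them. Its 95% Poisson interval (7.09 to 9.41 CPM) overlapped those of BSA replicate 1 (5.80 to 8.29 CPM) and BSA replicate 2 (5.55 to 7.73 CPM). AGEs replicate 1 stood higher still, 1.59-fold over AGEs replicate 2 (95% counting interval 1.32 to 1.91). The log2 fold change was 0.65 ± 0.25 (SE) with an unadjusted p of 0.0223 and an adjusted p of 0.848 from edgeR. It was 0.28 without AGEs replicate 1 and 0.61 without BSA replicate 2, where Oas3 did not pass, and 0.94 without AGEs replicate 2. Oas3 also fell short of the threshold on log2(TPM + 1) values (0.41) and after removal of the trend with GC content (0.57).

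Oas1a, another oligoadenylate synthetase (Entrez gene 246730; chromosome 5, 120896256 to 120907544), was the second most abundant member by TPM, with means of 27.7 TPM with BSA and 35.3 TPM with AGEs. It had 598 and 764 counts with BSA against 1174 and 906 counts with AGEs, or 33.0 and 34.6 CPM with BSA against 51.3 and 37.3 CPM with AGEs. The groups did not overlap, and AGEs replicate 1 stood out by 1.37-fold over AGEs replicate 2, a gap beyond counting error. The log2 fold change was 0.39 ± 0.14 (SE; unadjusted p = 0.0186, adjusted p = 0.848 from edgeR), under the fold limit. Oas1a and its copy Oas1g may share reads, and Oas1g, named after its values were seen, had 10.6 and 9.88 CPM with BSA against 16.0 and 11.1 CPM with AGEs.

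Oas2, which lies 3211 bases from Oas3, had 11.7 and 12.8 CPM with BSA against 17.3 and 10.7 CPM with AGEs. Oasl1, which in mice restrains the translation of Irf7, had 4.37 and 5.17 CPM with BSA against 7.64 and 4.24 CPM with AGEs. Its neighbour Oasl2 had 84 and 189 counts with BSA against 279 and 163 counts with AGEs, or 4.64 and 8.57 CPM with BSA against 12.2 and 6.71 CPM with AGEs, with a log2 fold change of 0.51 ± 0.34 (SE; adjusted p = 0.909 from edgeR). For these 3 genes AGEs replicate 1 was the highest library and AGEs replicate 2 lay within or below the BSA range, so that the groups overlapped. Eif2ak2, the RNA-dependent kinase PKR, had 35.9 and 33.8 CPM with BSA against 41.1 and 34.7 CPM with AGEs. It overlaps the listed genes Gm6548 and Gm26637.

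The Ifit genes, whose products bind viral RNA and hinder its translation, had few counts and wide standard errors. The log2 fold change was 0.45 ± 0.62 for Ifit1 and -0.15 ± 0.80 for Ifit2 (SE). Ifit1 had 29 and 9 counts with BSA against 40 and 23 counts with AGEs. Ifit2 had 32 and 4 counts with BSA against 24 and 16 counts with AGEs, so that the BSA duplicates differed by 9.76-fold (95% counting interval 3.46 to 38.0). In both genes BSA replicate 2 was the lowest library, although its 95% Poisson interval overlapped that of AGEs replicate 2. Ifit3 (Entrez gene 15959; chromosome 19, 34583119 to 34588982) had 26 and 30 counts with BSA against 23 and 8 counts with AGEs, or 1.44 and 1.36 CPM with BSA against 1.004 and 0.329 CPM with AGEs. It lay lower in both AGEs libraries, with a log2 fold change of -1.07 ± 0.58 (SE; adjusted p = 0.898 from edgeR).

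These 3 genes stand in a cluster on chromosome 19, with 6584 bases between Ifit2 and Ifit3 and 51906 between Ifit3 and Ifit1. Their fold changes turned on single libraries. The log2 fold change of Ifit2 was 2.19 without BSA replicate 1 and -1.04 without BSA replicate 2. That of Ifit1 was 1.70 and -0.25 in the same fits. That of Ifit3 was -2.06 without AGEs replicate 1 and -0.47 without AGEs replicate 2.

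**Figure D4:**
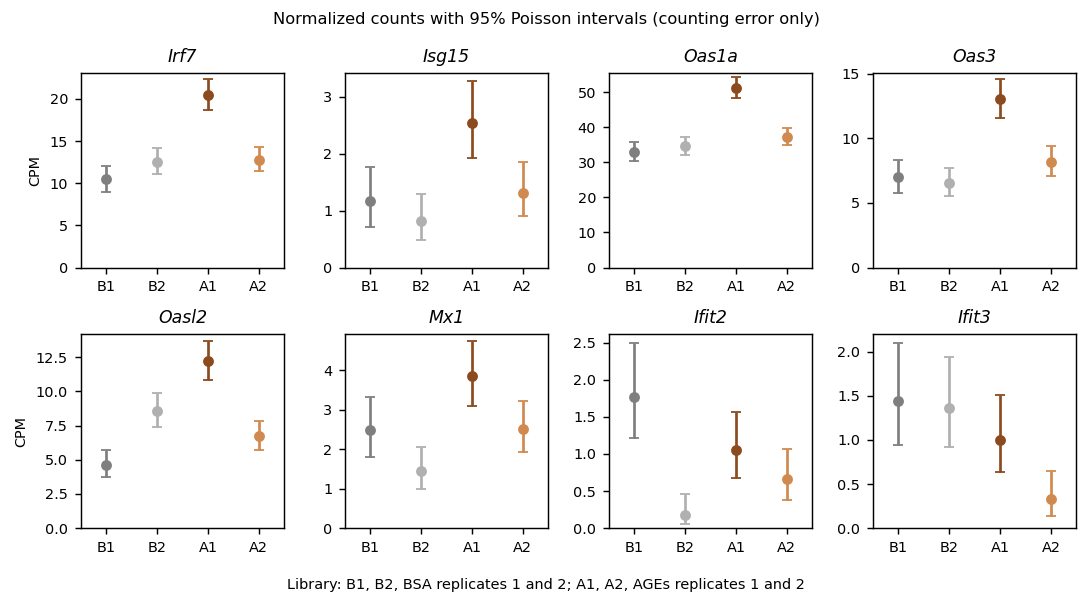
CPM (y axis, from 0) of 8 members in each library (B1 and B2, BSA replicates; A1 and A2, AGEs replicates). Bars are 95% Poisson intervals of the count, which cover counting error only. For Irf7, Isg15, Oas1a, Oas3, Oasl2 and Mx1 the highest point is AGEs replicate 1, whereas for Ifit2 and Ifit3 it is BSA replicate 1.

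Among 7 further antiviral effectors none passed the threshold. Mx1, a dynamin-like GTPase against influenza viruses that carries an inactivating deletion in C57BL/6 and many other inbred strains (Entrez gene 17857; chromosome 16, 97447035 to 97462906), had 45 and 32 counts with BSA against 88 and 61 counts with AGEs. In CPM it had 2.49 and 1.45 CPM with BSA against 3.84 and 2.51 CPM with AGEs, with AGEs replicate 2 only just above BSA replicate 1. Its log2 fold change was 0.70 ± 0.41 (SE; adjusted p = 0.902 from edgeR). Mx2, a related GTPase on the same chromosome, had 1.16 and 1.72 CPM with BSA against 1.88 and 0.576 CPM with AGEs, and thus both its highest and its lowest level among the AGEs libraries. The ratio between its AGEs duplicates was 3.26 (95% counting interval 1.75 to 6.45).

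Bst2, the gene of tetherin, which holds budding virions at the cell surface, was among the 4 members with the highest TPM, with means of 27.4 TPM with BSA and 30.2 TPM with AGEs. It had 14.0 and 15.1 CPM with BSA against 18.6 and 15.6 CPM with AGEs. Both AGEs libraries were higher, with a log2 fold change of 0.23 ± 0.17 (SE; adjusted p = 0.911 from edgeR). Rsad2, the gene of viperin, had 11.2 and 12.8 CPM with BSA against 13.1 and 11.5 CPM with AGEs. Cmpk2, a mitochondrial nucleotide kinase gene 12664 bases away, had 3.98 and 3.44 CPM with BSA against 3.49 and 2.35 CPM with AGEs. Both overlapped between the groups.

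Samd9l, a restriction factor, had 70.6 and 76.1 CPM with BSA against 77.2 and 75.7 CPM with AGEs. Rtp4, an antiviral member of the receptor transporter family, had 2.60 and 3.13 CPM with BSA against 2.23 and 1.81 CPM with AGEs. It was lower in both AGEs libraries, with a log2 fold change of -0.51 ± 0.37 (SE; adjusted p = 0.911 from edgeR).

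The ADP-ribosylation genes were the role group in which no member was higher in AGEs replicate 1 than in AGEs replicate 2. Parp9 and Dtx3l encode the partners of a complex of an ADP-ribosyltransferase and a ubiquitin ligase, and lie close to Parp14 on chromosome 16. Parp9 had 29.3 and 28.4 CPM with BSA against 25.9 and 31.0 CPM with AGEs. Parp14, an ADP-ribosyltransferase of macrophage signalling, had 88.1 and 79.4 CPM with BSA against 79.9 and 87.1 CPM with AGEs. Dtx3l had 34.2 and 33.0 CPM with BSA against 30.1 and 32.2 CPM with AGEs. The ratios between the AGEs duplicates were 0.835 to 0.936 and the log2 fold changes between groups lay between -0.11 and -0.0040. Parp9 and Dtx3l overlap by 558 bases, so reads may be shared between them.

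Of the remaining members, Xaf1, an antagonist of the apoptosis inhibitor XIAP, had 3.59 and 2.76 CPM with BSA against 5.11 and 3.54 CPM with AGEs. Its log2 fold change was 0.45 ± 0.33 (SE). Ifi35 had 11.05 and 9.97 CPM with BSA against 12.9 and 11.08 CPM with AGEs, so that AGEs replicate 2 was almost level with BSA replicate 1. Trim30a, which restrains NF-κB signalling in mice, was slightly lower in both, with 55.4 and 52.9 CPM with BSA against 52.7 and 48.5 CPM with AGEs. Sp100, a component of nuclear bodies, had 41.6 and 51.1 CPM with BSA against 46.5 and 43.8 CPM with AGEs. None of these 4 genes passed the threshold.

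Leaving out either AGEs library changed which members were called and in which direction. Without AGEs replicate 2, 5 members were upregulated past the threshold (Irf7, Isg15, Oas1a, Oas3 and Oasl2). This is 13.9% of the members, where 1.03% of all genes in that fit were upregulated and 0.839% downregulated. Without AGEs replicate 1, 0 were upregulated (0.867% of all genes in that fit) and 1, Ifit3, was downregulated (1.27% of all genes). The median log2 fold change of the members was 0.24 without AGEs replicate 2 and -0.051 without AGEs replicate 1. Omitting BSA replicate 1 gave 4 upregulated members (Ifit1, Ifit2, Oas3 and Mx1; 11.1%, where 1.23% of all genes were upregulated and 1.18% downregulated). Omitting BSA replicate 2 gave 2 (Irf7 and Oasl2; 5.56%, where 2.14% of all genes were upregulated and 1.60% downregulated). In these fits the spread of a group with a single library is taken from the other group.

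**Figure D5:**
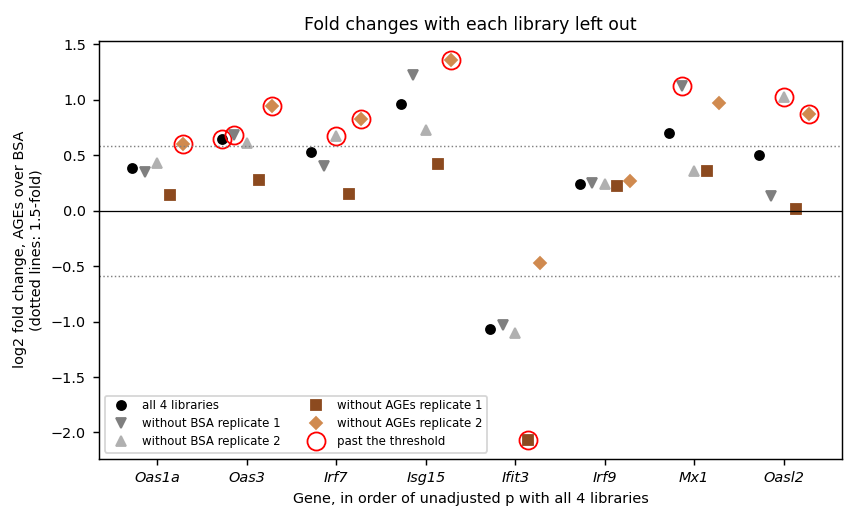
Log2 fold change of AGEs over BSA (y axis) for the 8 members with the smallest unadjusted p (x axis), from all 4 libraries and with each library left out. Red circles mark values past the threshold and dotted lines a 1.5-fold change. Without AGEs replicate 1 (squares) Oas1a, Oas3, Irf7, Isg15 and Oasl2 have their lowest values, and without AGEs replicate 2 (diamonds) they lie higher than with all 4 libraries.

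Among other genes of the type I interferon pathway no gene was called between the groups. This list is not confined to genes upstream of the members and includes Ube2l6, Uba7 and Socs3. Of the 29 listed genes of the type I interferon pathway that are not members, 0 passed the threshold, where 1.77% of all genes tested did. Of the 29, 20 had positive and 9 negative log2 fold changes, and the median was 0.058. Both AGEs libraries lay above both BSA libraries for 11 of the 29 (37.9%, where 17.7% of all genes tested did) and below them for 1. Ifnb1, Ifna1, Ifna2, Ifna4 and the inhibitor gene Socs1 have no row and were not analysed here. Ifnar1 had 192 and 187 CPM with BSA against 196 and 189.8 CPM with AGEs, and Ifnar2 had 89.4 and 74.1 CPM with BSA against 79.8 and 79.8 CPM with AGEs. The kinase gene Jak1 had 311 and 317 CPM with BSA against 308 and 319.9 CPM with AGEs, and Tyk2 had 90.1 and 91.1 CPM with BSA against 93.1 and 98.2 CPM with AGEs. Tyk2 lay slightly higher in both AGEs libraries and the other 3 genes overlapped, with log2 fold changes of 0.026 ± 0.082, -0.033 ± 0.11, -0.0024 ± 0.081 and 0.078 ± 0.090 (SE).

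Ikbke, a kinase that activates Irf3 and Irf7, had 58.1 and 57.7 CPM with BSA against 77.8 and 65.9 CPM with AGEs. It was higher in both AGEs libraries, at 0.31 ± 0.11 (SE; unadjusted p = 0.0125, adjusted p = 0.848 from edgeR), under the fold limit. Ptpn6, a phosphatase that dampens receptor signalling, and Irf8, a factor of the macrophage lineage, had log2 fold changes of 0.18 ± 0.091 and 0.15 ± 0.086 (SE). Of these 29 genes, 14 were higher in AGEs replicate 1 than in AGEs replicate 2, with a median ratio of 0.9999.

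Of 70 other interferon-induced genes, 60 are listed and 59 were tested, with a median log2 fold change of 0.049. Past the threshold was 1 of the 59, where 1.77% of all genes tested passed. The gene past the threshold was Igtp, an interferon-γ-inducible GTPase, with 7.68 and 6.53 CPM with BSA against 4.28 and 3.91 CPM with AGEs. It was downregulated, at -0.79 ± 0.26 (SE; unadjusted p = 0.00923, adjusted p = 0.848 from edgeR), and did not pass without AGEs replicate 2 (-0.73). Lgals3bp, a secreted glycoprotein, had 78.0 and 79.1 CPM with BSA against 112 and 88.0 CPM with AGEs and a log2 fold change of 0.35 ± 0.11 (SE). Rnf213, a large ubiquitin ligase, had 389 and 372 CPM with BSA against 478 and 430.2 CPM with AGEs, a log2 fold change of 0.26 ± 0.086 (SE). For Parp10, an ADP-ribosyltransferase, the log2 fold change was 0.40 ± 0.17 (SE).

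Lgals3bp, Rnf213 and Parp10 each had an unadjusted p under 0.05 and stayed under the fold limit. By edgeR 0 of the 88 tested genes of both lists had an adjusted p under 0.05. An unadjusted p under 0.05 was found for 5 of them, where 5.64% of all genes tested (800 of 14181) had one. DESeq2 and limma-voom also gave 0 and 5, where 503 and 744 of all genes tested had an unadjusted p under 0.05. AGEs replicate 1 was above AGEs replicate 2 for 36 of the 59 other induced genes (61.0%), with a median ratio of 1.08, and was the highest library for 27. These shares lay between those of the members and those of all genes tested, and the differences were not tested.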

How the data were processed

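RNA depleted of ribosomal RNA was sequenced from stranded libraries. The authors aligned reads to mm10 (GRCm38) using HISAT2 2.1.0 and deposited read counts per gene together with TPM from StringTie 2.1.3b. FPKM and log2 values (8 columns) and the authors' own DESeq2 comparison (fold changes, p-values) were not used. How reads were counted, and by strand or not, is unstated. The lowest count of a listed gene is 1.

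Counts went into edgeR 4.0.16 under R 4.3.3 (TMM, filterByExpr, robust glmQLFit, glmQLFTest, no block) with Benjamini-Hochberg adjustment over 14181 genes. The standard error was the log2 fold change over the square root of F. Poisson and Clopper-Pearson 95% intervals cover counting error only. The p-values measure the spread between these libraries (biological coefficient of variation 12.9%), which may be technical. Duplicates differed beyond sampling noise (chi-square per gene 23.2 for BSA, 10.0 for AGEs). Alternatives were DESeq2 1.42.0, limma-voom and limma on log2(TPM + 1) (limma 3.58.1), RLE and library size scaling, no filter or at least 50 counts in 2 libraries, a loess offset on transcript GC content (GENCODE M21, available for 92.8% of genes tested), a replicate block, other thresholds, and each library left out. The edgeR, DESeq2 and limma-voom fits, and the edgeR fits with the GC offset or the replicate block, were also run on simulated counts. The other fits were not. Gene coordinates and promoters are RefSeq's (GRCm38.p6).

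The members, lists and tests were chosen with earlier results of these data known. Given in full are members past the threshold, the 8 with the smallest p and the 4 with the highest TPM; of the other lists, genes past the threshold, the 4 with the smallest p in each, and the receptor and kinase genes. A further gene of this rule is not reported here.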

Additional observations from a re-analysis of the deposited data

How the results depend on the processing

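Members and lists were compared in 2 libraries per group, so the residual spread rests on 2 degrees of freedom shared over genes, and members with under 50 counts in a library, such as the Ifit genes, Isg15 and Mx2, have wide counting intervals. Past the threshold were 251 genes (117 up, 134 down), 1 member (Oas3) and 1 gene of the other interferon lists. The counts were 136, 0 and 0 with a fold limit of 2, and 0, 0 and 0 with an adjusted p under 0.05. They were 127 genes with at least 50 counts in 2 libraries and 143 with DESeq2. With each library left out they ranged from 270 to 543 genes, from 1 to 5 members and from 1 to 5 genes of the other lists. Members past the threshold were 0 on log2(TPM + 1) values, with the GC offset, and with the GC offset and replicate block, where the other lists had 2. On log2(TPM + 1) values the split of all genes was 57 up and 144 down. The cause was not tested. The fit with the replicate number as a block (replicate block) gave 264 genes, 1 member, 1 gene of the other lists and a median of 0.065, and samples with the same number did not deviate together (correlation 0.028), so the numbers were not taken as pairs. AGEs replicate 1 was highest for 22 members with TMM, RLE and library size scaling, 17 by TPM and 25 with the GC offset. It was highest for 24.2%, 23.6% and 22.03% of all genes tested with TMM, RLE and library size scaling. By TPM this share was 15.8%, and with the GC offset it was 23.2% of the genes in that fit. In these settings AGEs replicate 1 was above AGEs replicate 2 for 29 to 31 members. These scaling settings were added after seeing the data.

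Some log2 fold changes changed sign. With library size scaling that of Ifih1 was -0.018. With no filter Parp14 was 0.0022 and Jak1 0.0035. Ifit2 was 0.59 with limma-voom, 0.21 with the replicate block and 0.27 with block and GC offset. On log2(TPM + 1) values Ddx58 was -0.032, Ifih1 -0.10, Zbp1 -0.14, Oas2 -0.00073, Rsad2 -0.040, Samd9l -0.031 and Tyk2 -0.010. With the GC offset, without and with the replicate block, Ifi204 was 0.026 and 0.026, Parp14 0.031 and 0.031, Sp100 0.0013 and 0.0092, Jak1 0.018 and 0.018, and Tyk2 -0.041 and -0.041. With each library left out, the log2 fold changes that changed sign ranged from -0.15 to 0.067 for Ifi204, -1.04 to 2.19 for Ifit2, -0.061 to 0.15 for Rsad2, -0.072 to 0.068 for Parp14, -0.16 to 0.10 for Ifnar2, -0.00071 to 0.0089 for Ifih1, -0.60 to 0.75 for Zbp1, -0.32 to 0.069 for Stat2, -0.31 to 0.25 for Usp18, -0.25 to 1.70 for Ifit1, -1.32 to 0.37 for Mx2, -0.18 to 0.12 for Sp100, -0.030 to 0.027 for Jak1, -0.046 to 0.15 for Ddx58, -0.31 to 0.49 for Dhx58, -0.14 to 0.39 for Ifi205, -0.21 to 0.0085 for Herc6, -0.19 to 0.50 for Oas2, -0.17 to 0.68 for Oasl1, -0.0064 to 0.24 for Eif2ak2 and -0.16 to 0.10 for Parp9. Of the 48 genes tracked, 12 reversed under at least 1 alternative that kept all 4 libraries.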
